A study of Mus musculus with 12 samples.

Results

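The genes described here encode the subunits of the proteasome, its activators and its assembly chaperones, measured by RNA-seq in the cochlea of the mouse, the part of the inner ear that senses sound. They are the protein-coding genes whose mouse symbol starts with Psma, Psmb, Psmc, Psmd, Psme, Psmf or Psmg followed by a number and that had 10 or more counts in 4 or more libraries. There are 50 of them among 35496 genes counted, and all 50 protein-coding genes that the annotation lists under such symbols met the count rule. By role they comprise 8 alpha subunits and 7 constitutive beta subunits of the 20S core, 4 beta subunits of the immunoproteasome and thymoproteasome, 6 ATPases and 3 other subunits of the 19S base, and 8 subunits of the 19S lid. The remainder are 5 activators and inhibitors, 7 assembly chaperones and 2 further genes that the symbol rule takes. Psmc3ip encodes a homologous recombination factor and is no proteasome subunit, and Psme2b is a near-identical copy of the activator gene Psme2. All 50 were among the 19497 genes tested.

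The animals were awake FVB/NCrl mice at postnatal day 60, and every group heard noise for 30 minutes before RNA was taken. Of the 12 libraries, 4 came from 70 dB SPL, which the labels call ambient, 4 from 94 dB SPL and 4 from 105 dB SPL. Nothing in the labels says whether a library holds 1 animal or a pool, or that replicates came from separate animals, so a p-value here speaks of spread among libraries, which may be technical. Total counts ran from 31141706 to 42317781 per library, and the proteasome genes took between 0.396% and 0.467% of them. Within the 94 dB group, replicates 3 and 4 stood apart from replicates 1 and 2. Mitochondrial genes held 2.68% and 2.73% of counts in replicates 3 and 4, against 3.53% and 3.59% in replicates 1 and 2. Haemoglobin genes held 2.90% and 2.95% in replicates 3 and 4, against 1.75% and 2.07% in replicates 1 and 2. The mitochondrial share also set all 94 dB libraries below every other library. Its lowest value was 5.08% in the 70 dB group (highest 5.68%) and 4.43% in the 105 dB group (highest 5.35%). Haemoglobin shares overlapped between the 94 dB group and both others. The part of these shares in the proteasome values was not tested. For each call of a proteasome gene that was lost without 94 dB replicates 3 and 4, the value or adjusted p without them is given. For the partner, pathway and marker genes, values without these libraries are not reported here. The 9 hair cell markers examined, among them Otof and Slc26a5, had counts in every library and summed to between 107 and 122 CPM (TMM-scaled counts per 1000000). In whole tissue, fewer cells of a type and less RNA per cell cannot be told apart.

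The proteasome is a barrel-shaped protease that degrades proteins tagged with ubiquitin. Alpha subunits form its outer rings and gate the entry, while beta subunits form the inner rings and carry the proteolytic sites. A 19S cap binds ubiquitin, unfolds the substrate with a ring of ATPases and removes the tag with a deubiquitinase in its lid. In immune cells, and in other cells under interferon, the catalytic subunits encoded by Psmb8, Psmb9 and Psmb10 take the places of those encoded by Psmb5, Psmb6 and Psmb7. When proteasome activity falls, the transcription factor NRF1, encoded by Nfe2l1, is processed and raises transcription of the subunit genes through antioxidant response elements, which it binds together with small Maf proteins.

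Psmb5, the member with the largest fold change among those called, has a processed copy elsewhere in the genome, and a stretch of each is shown so that the shared sequence behind its counts can be seen. Psmb5 (ENSMUSG00000022193, chr14:54614119-54618022, minus strand) encodes the subunit with chymotrypsin-like activity. The processed pseudogene Gm3375 (ENSMUSG00000107470, chr7:3181093-3181888, plus strand) matches it over 796 aligned columns with 9 differences, an identity of 98.87%. Both are given from the GENCODE M21 transcripts on GRCm38, over 150 coding bases, with the 4 bases at which they differ in capitals.
Psmb5: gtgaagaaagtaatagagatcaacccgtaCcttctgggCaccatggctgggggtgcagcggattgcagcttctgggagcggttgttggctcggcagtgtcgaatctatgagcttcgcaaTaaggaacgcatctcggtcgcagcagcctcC
Gm3375: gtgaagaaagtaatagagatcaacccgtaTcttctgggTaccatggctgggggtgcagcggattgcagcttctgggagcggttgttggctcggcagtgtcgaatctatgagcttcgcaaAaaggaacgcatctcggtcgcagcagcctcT
The longest identical run between both transcripts is 194 bases, so a short read from much of either could be assigned to the other. Gm3375 is therefore described beside Psmb5 wherever the results turn on that gene.

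Promoters are shown for Psmb5 and Psmb6, a pair of constitutive catalytic subunit genes that were both called at 94 dB and whose promoters both hold the antioxidant response element searched for. The 150 bases upstream of each RefSeq gene start are given on the gene's strand (GRCm38.p6), with the match to TGACNNNGC in capitals.
Psmb5, chr14:54617996-54618145, minus strand: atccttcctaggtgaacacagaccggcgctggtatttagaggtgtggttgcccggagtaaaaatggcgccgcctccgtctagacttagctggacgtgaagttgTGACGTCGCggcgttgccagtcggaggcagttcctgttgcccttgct
Psmb6, chr11:70525207-70525356, plus strand: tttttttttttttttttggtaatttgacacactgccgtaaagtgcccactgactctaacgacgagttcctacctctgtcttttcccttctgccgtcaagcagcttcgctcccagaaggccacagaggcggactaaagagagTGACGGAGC
The match starts 47 bases before the gene start in Psmb5 and 9 bases before it in Psmb6. RefSeq promoters, 250 bases before to 50 bases after the start, were matched for 42 of the 50 genes. On either strand, TGACNNNGC lay in 6 of those 42 (14.3%), which is close to its share of 14.0% among 27025 genes with a promoter. The other genes with a match were Psmc6, Psmd12, Psmd9 and Psme4. Where a gene had several starts, a match at any of them was counted. Of the 15 genes that were higher at 94 dB, 3 held it. Of the other 27 genes, 3 did, and these included Psmc6 and Psmd12, which were lower at 94 dB. A CCAAT box (CCAAT) lay in the promoters of 35.7% of the 42 genes and of 41.1% of all genes with a promoter, and the heat shock element core GAANNTTC in 7.14% and 9.04%. The ETS site CCGGAAG lay in 15 of the 42 (35.7%), against 9.93% of all genes with a promoter, and the core of the interferon-stimulated response element in 5 (11.9%), against 3.99%. These are matches of letters in fixed windows and no measure of binding.

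Noise at 94 dB was compared first with the 70 dB level, which asks how proteasome transcripts differ right after a loud exposure. Of the 50 genes, 16 were higher and 3 lower at an adjusted p under 0.05 (edgeR's quasi-likelihood test with Benjamini-Hochberg adjustment over all genes tested). Among all 19497 genes, 26.1% were called, 13.9% higher and 12.2% lower, so the 19 of 50 proteasome genes (38%) stand against a background in which many genes of the transcriptome differed. The median log2 fold change was 0.154 over the 50 genes and -0.018 over all genes, and 38 of the 50 were above 0. Without Psmb11, which met the count rule only through the 94 dB group, and without Psma8, Psmc3ip and Psme2b, 34 of 46 were above 0 (median 0.131). All 4 libraries at 94 dB lay above all 4 at 70 dB in 17 of the genes and below in 2, against 13.0% and 12.3% of all genes (25.4% in either direction). Counted by role, the higher genes were mostly core subunits and chaperones. Of the 6 catalytic subunits of both proteasome types, 5 were higher (median 0.49). Of 19 core subunits 8 were higher and none lower (median 0.29), and of 17 subunits of the 19S cap 2 were higher and 3 lower (median 0.054). Assembly chaperones had 4 of 7 higher (median 0.25). Without 94 dB replicates 3 and 4, 7 genes were called, 5 higher and 2 lower, and the median was 0.0818. Of the 19 calls 6 were kept. This step left 2 libraries at 94 dB. Among all genes it took the number called from 5085 to 1610 (26.1% to 7.97%), with 1034 higher and 576 lower.

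**Figure D1:**
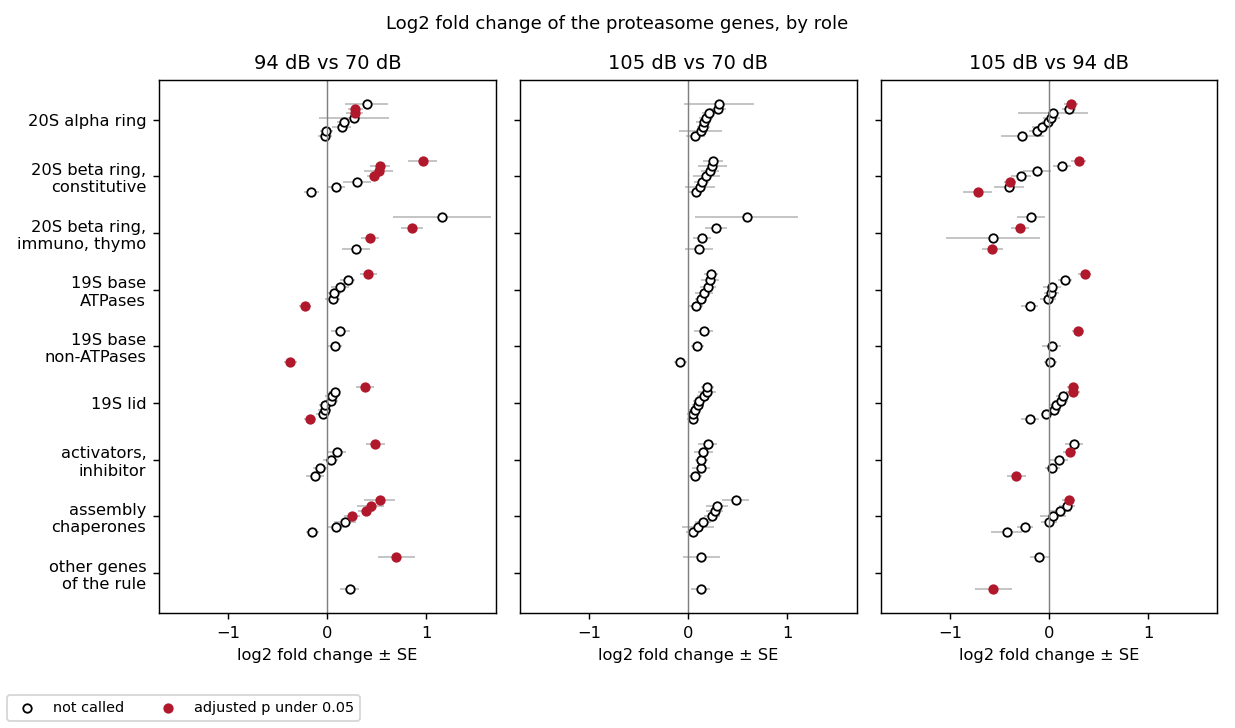
Log2 fold change with its standard error for each of the 50 proteasome genes (1 point each), grouped by role, in 3 panels for 94 dB against 70 dB, 105 dB against 70 dB and 105 dB against 94 dB; filled points passed an adjusted p of 0.05. The 94 dB panel holds 19 filled points, most of them in the beta rings and chaperones, the 105 dB against 70 dB panel holds none with 49 points right of 0, and the last panel holds 8 to the right and 6 to the left.

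All 3 constitutive catalytic subunits were higher at 94 dB. Psmb5 had 28.5, 32.2, 26.9 and 31.4 CPM at 70 dB, 47.9, 45.3, 66.6 and 72.4 CPM at 94 dB, and 33.1, 37.7, 40.0 and 30.1 CPM at 105 dB. Every 94 dB library lay above every library of both other groups, and within the 94 dB group replicates 3 and 4 were the highest. Its level was 58.1 ± 13.5 CPM at 94 dB against 29.8 ± 2.47 CPM at 70 dB (SD, n = 4 each), a log2 fold change of 0.96 with SE 0.14 (adjusted p = 0.000643), or 1.95-fold. The call held in all 23 alternatives, while the log2 fold change was 0.65 (adjusted p = 0.00283) without 94 dB replicates 3 and 4 and 0.61 (adjusted p = 0.000232) with the trend of GC content and length removed. Gm3375 had 20.7, 20.2, 19.7 and 21.2 CPM at 70 dB, 32.7, 34.4, 42.7 and 48.4 CPM at 94 dB, and 24.4, 24.4, 25.0 and 21.5 CPM at 105 dB. The pseudogene's groups were ordered like those of Psmb5, and its share of the pair's summed counts was 40.8% in the 70 dB group, 40.7% in the 94 dB group and 40.5% in the 105 dB group. Counts of both genes added together gave a log2 fold change of 0.96 with SE 0.12 (adjusted p = 0.000177), an alternative added after the data were seen. The division of reads between gene and copy cannot be checked in these counts, so the level of Psmb5 itself is uncertain.

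**Figure D2:**
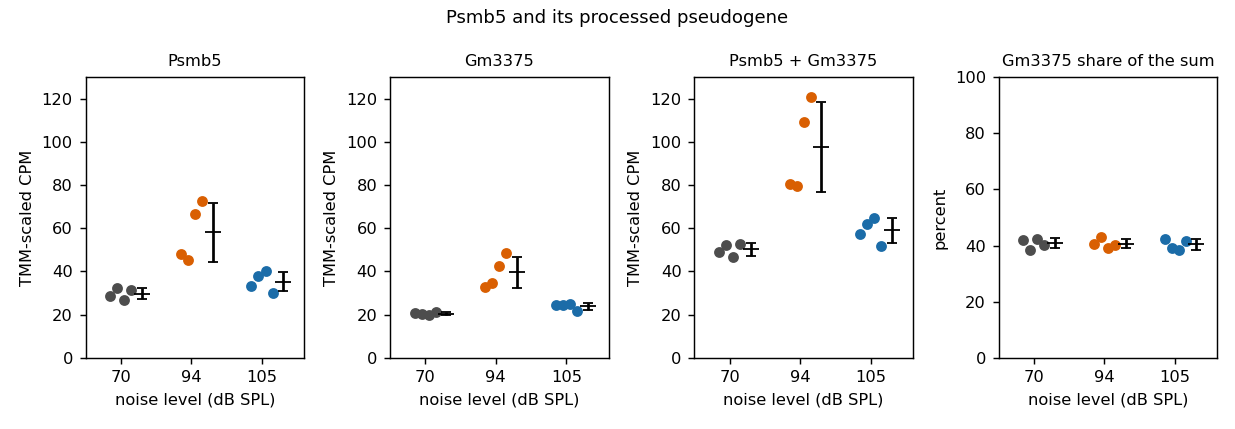
TMM-scaled CPM of Psmb5, of its processed pseudogene Gm3375 and of their sum, and the share of Gm3375 in the sum in percent, at 70, 94 and 105 dB SPL; points are libraries and bars the mean ± SD (n = 4). The 94 dB libraries are the highest in the first 3 panels, while the share stays between 38.5% and 43.2% in all 12 libraries.

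Psmb7, which encodes the subunit with trypsin-like activity (ENSMUSG00000026750, chr2:38588036-38644087, minus strand), had 55.1, 61.0, 57.2 and 63.4 CPM at 70 dB, 80.7, 77.0, 86.9 and 83.4 CPM at 94 dB, and 60.4, 61.3, 66.6 and 61.3 CPM at 105 dB. All 94 dB libraries exceeded those of both other groups, and the spread within each group was small. The log2 fold change at 94 dB over 70 dB was 0.47 with SE 0.07 (adjusted p = 0.000175), and it held in all 23 alternatives. On the opposite strand Nek6 overlaps 405 bases, or 11.8%, of the exons of Psmb7, and the sources used here do not state whether counting used strand. Psmb6, the gene of the subunit with caspase-like activity, had 78.6, 92.8, 80.7 and 99.4 CPM at 70 dB, 101, 101, 141 and 159.9 CPM at 94 dB, and 84.8, 95.2, 112 and 88.3 CPM at 105 dB. Replicates 1 and 2 at 94 dB were just above the highest 70 dB library, and replicates 3 and 4 well above it. The log2 fold change of Psmb6 was 0.52 with SE 0.15 (adjusted p = 0.0247). The Psmb6 call failed on omission of 70 dB replicate 1 (adjusted p = 0.0624) or 3 (0.0659), or of 94 dB replicate 3 (0.074), 4 (0.0643) or both (0.20, adjusted p = 0.288). Leaving out the filter on low counts also ended it (adjusted p = 0.074).

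Among the immunoproteasome subunits, Psmb8 (ENSMUSG00000024338, chr17:34197721-34201454, plus strand), which takes the place of Psmb5, had 17.0, 21.4, 19.6 and 18.9 CPM at 70 dB, 27.5, 37.0, 34.9 and 39.7 CPM at 94 dB, and 21.3, 23.2, 26.3 and 22.7 CPM at 105 dB. The 94 dB libraries were all above those of both other groups. At 94 dB it averaged 34.8 ± 5.22 CPM, against 19.2 ± 1.83 CPM at 70 dB (SD, n = 4 each), a log2 fold change of 0.85 with SE 0.11 (adjusted p = 8.49e-05) that held in all 23 alternatives. Psmb10, the counterpart of Psmb7, had 41.3, 45.0, 49.0 and 53.3 CPM at 94 dB, against 31.1, 37.6, 34.6 and 36.6 CPM at 70 dB. The groups did not overlap, and the log2 fold change was 0.43 with SE 0.09 (adjusted p = 0.00331). That call was lost with the trend of GC content and length removed (0.19, adjusted p = 0.0887) and without 94 dB replicates 3 and 4 (0.31, adjusted p = 0.0772). Psmb9, the counterpart of Psmb6 and a close neighbour of Psmb8 on chromosome 17, had 19.3, 26.5, 27.3 and 32.7 CPM at 94 dB, against 18.6, 25.0, 21.4 and 21.3 CPM at 70 dB. Replicate 1 at 94 dB lay within the 70 dB range, and the log2 fold change of 0.29 with SE 0.14 (adjusted p = 0.141) did not pass. Tap1 overlaps 212 bases of Psmb9 exons on the opposite strand. Psmb11, the thymus-specific subunit, had only between 0.0572 and 0.558 CPM in any library. Its log2 fold change of 1.16 with SE 0.50 (adjusted p = 0.0955) did not pass. It had 10 or more counts in 5 libraries: 94 dB replicates 2, 3 and 4, 70 dB replicate 4 and 105 dB replicate 1. It thus met the count rule only through the 94 dB group, where it was highest, and its fold change there cannot be read as a result.

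Markers of immune and other cells were examined in the same comparison, in which 13.9% of all genes were higher and 12.2% lower. Of 8 macrophage markers 4 were higher and 1 lower at 94 dB, and their summed level was 546 to 655 CPM at 94 dB, against 440 to 515 CPM at 70 dB; at 105 dB it was 473 to 527 CPM. Of 11 neutrophil markers 5 were higher and none lower, with summed levels of 8525 to 16383 CPM at 94 dB against 8393 to 10374 CPM at 70 dB, and 9262 to 11053 CPM at 105 dB. Of 7 T and NK cell markers 1 was higher (41.3 to 57.0 CPM at 94 dB against 35.7 to 46.2 CPM at 70 dB), and of 8 B cell markers 1 was higher (426 to 613 CPM against 369.9 to 568 CPM). Of 7 erythroid markers 2 were higher and 1 lower (18844 to 32448 CPM at 94 dB against 18147 to 22272 CPM at 70 dB), of 7 markers of the stria vascularis and fibrocytes 1 was higher and 2 lower (7905 to 8722 CPM against 7899 to 9503 CPM), and of 5 proliferation markers 1 was lower (596 to 791 CPM against 729.6 to 869 CPM). None of the markers in these 7 lists was at 0 in any library, and their part in the immunoproteasome values was not tested.

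**Figure D3:**
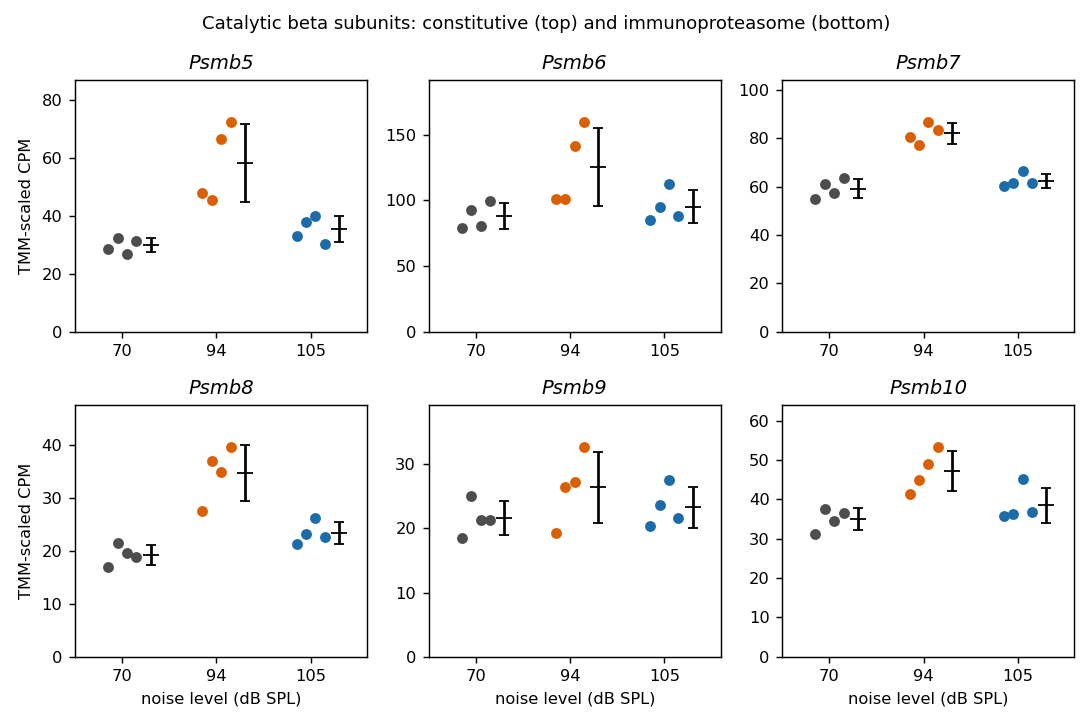
TMM-scaled CPM of the constitutive catalytic subunits (top) and the immunoproteasome subunits that replace them (bottom) at 70, 94 and 105 dB SPL; points are libraries in replicate order and bars the mean ± SD (n = 4). In Psmb5, Psmb7 and Psmb8 all 94 dB libraries are above all others, while in Psmb9 the groups overlap.

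The other beta subunits and the alpha ring were mixed. Psmb4, a structural beta subunit without a catalytic site (ENSMUSG00000005779, chr3:94884093-94886961, minus strand), had 108, 123, 110.1 and 123 CPM at 70 dB, 145, 146, 188 and 192 CPM at 94 dB, and 137, 136, 159 and 119.6 CPM at 105 dB. All 94 dB libraries were above all 70 dB libraries, with a log2 fold change of 0.53 with SE 0.10 (adjusted p = 0.00207). That call held in all 23 alternatives, without 94 dB replicates 3 and 4 only just (0.33, adjusted p = 0.0489). Psmb2 had 71.0, 70.3, 68.2 and 74.7 CPM at 70 dB, 55.7, 60.1, 66.8 and 71.5 CPM at 94 dB, and 77.4, 76.2, 86.2 and 72.7 CPM at 105 dB, and 3 of its 4 libraries at 94 dB lay below the 70 dB range; its log2 fold change of -0.16 with SE 0.08 (adjusted p = 0.139) did not pass, although it passed without 94 dB replicates 3 and 4 (-0.29, adjusted p = 0.0369) and after removal of the GC and length trend (-0.33, adjusted p = 0.00153). Psmb1, with a log2 fold change of 0.09, was not called. Psmb3 had 86.9, 89.3, 128 and 138 CPM at 94 dB, against 83.7, 95.5, 79.3 and 99.4 CPM at 70 dB, with replicates 1 and 2 at 94 dB inside the 70 dB range and replicates 3 and 4 above it. Its log2 fold change of 0.30 with SE 0.14 (adjusted p = 0.130) did not pass; it was -0.02 (adjusted p = 0.927) without 94 dB replicates 3 and 4, and it passed without 94 dB replicate 1 (adjusted p = 0.0320). In the alpha ring, Psma5 had 64.4, 66.1, 70.1 and 79.6 CPM at 94 dB, against 55.7, 58.0, 57.6 and 59.4 CPM at 70 dB, with no overlap and a log2 fold change of 0.28 with SE 0.08 (adjusted p = 0.0126). The call of Psma5 was lost with the GC and length trend removed (0.18, adjusted p = 0.0757) and without 94 dB replicates 3 and 4 (0.18, adjusted p = 0.163). Psma6 was the other alpha subunit called, at 0.28 with SE 0.09 (adjusted p = 0.0263). It has the highest level of the ring per kb of merged exon, but not per length of the longest transcript. Its call was lost without 70 dB replicate 1 (adjusted p = 0.0716) or 3 (0.0531), or without 94 dB replicate 3 (0.0616), 4 (0.0837) or both (0.21, adjusted p = 0.228). Psma7 showed the division of the 94 dB group most plainly, with 117, 123, 199.8 and 232 CPM at 94 dB, against 117, 139.9, 111 and 143 CPM at 70 dB. Replicates 1 and 2 lay inside the 70 dB range and replicates 3 and 4 far above it, and the log2 fold change of 0.40 with SE 0.22 (adjusted p = 0.205) did not pass and was -0.08 (adjusted p = 0.75) without those 2 libraries. Psma8, the testis form of an alpha subunit, stayed between 0.296 and 0.996 CPM in all 12 libraries. The remaining alpha subunits (Psma1 to Psma4) had log2 fold changes between -0.02 and 0.16 and were not called.

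The 19S cap held all 3 genes that were lower at 94 dB. Psmd1, a large scaffold subunit of the base (ENSMUSG00000026229, chr1:86064387-86139151, plus strand), had 125, 133, 133 and 145 CPM at 70 dB, 108, 108, 95.2 and 103 CPM at 94 dB, and 126, 131, 123 and 128 CPM at 105 dB. Its 94 dB libraries were all below those of both other groups. It averaged 103 ± 5.93 CPM at 94 dB against 134 ± 8.42 CPM at 70 dB (SD, n = 4 each), a log2 fold change of -0.37 with SE 0.06 (adjusted p = 0.000860). The call held in all 23 alternatives, with -0.22 (adjusted p = 0.0227) after removal of the GC and length trend. Psmc6, an ATPase of the base, had 108, 112, 120.0 and 116 CPM at 70 dB, 100.3, 100.2, 96.4 and 92.4 CPM at 94 dB, and 122, 124, 135 and 118 CPM at 105 dB, again with all 94 dB libraries below the others. The log2 fold change of Psmc6 was -0.23 with SE 0.06 (adjusted p = 0.0152), but its sign turned with the GC and length trend removed (0.046, adjusted p = 0.671). The Psmc6 call was also lost without 70 dB replicate 3 (adjusted p = 0.0597) and without 94 dB replicates 3 and 4 (0.144). Psmd12, a lid subunit, had 80.3, 80.3, 76.4 and 75.3 CPM at 94 dB, against 79.9, 90.6, 89.0 and 93.7 CPM at 70 dB. Here the groups overlapped through 70 dB replicate 1, and the log2 fold change of -0.18 with SE 0.06 (adjusted p = 0.0438) held in 6 of 23 alternatives. It was lost without any one of 70 dB replicates 2 to 4, any 94 dB library, or 105 dB replicates 1, 2 or 4 (adjusted p between 0.0601 and 0.153), and without 94 dB replicates 3 and 4 together (-0.13, adjusted p = 0.287).

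Of the cap genes that were higher, the ATPase gene Psmc1 had 143, 138, 133 and 127 CPM at 94 dB, against 115, 94.7, 101 and 94.8 CPM at 70 dB. It differed without overlap, with a log2 fold change of 0.41 with SE 0.09 (adjusted p = 0.00282) that held in all 23 alternatives. Psmd13, a lid subunit, had 99.4, 104, 115 and 132 CPM at 94 dB, against 80.5, 93.9, 82.1 and 90.5 CPM at 70 dB, and a log2 fold change of 0.38 with SE 0.09 (adjusted p = 0.00703) that did not hold without 94 dB replicates 3 and 4 (0.24, adjusted p = 0.127). Sirt3 overlaps 342 bases of Psmd13 exons on the opposite strand. The other 12 subunits of the cap, including the deubiquitinase gene Psmd14 and the ubiquitin receptor gene Psmd4, were not called; Psmd14 had a log2 fold change of -0.05 and Psmd4 of 0.13.

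Among the activators, Psme2, which encodes a subunit of the interferon-inducible 11S cap, had 48.6, 54.7, 48.8 and 57.2 CPM at 70 dB, 61.5, 68.9, 79.3 and 82.9 CPM at 94 dB, and 53.8, 56.9, 67.6 and 54.4 CPM at 105 dB. The 94 dB libraries were all above the 70 dB range, and the log2 fold change was 0.48 with SE 0.10 (adjusted p = 0.00237). The call was lost without 94 dB replicates 3 and 4 (0.32, adjusted p = 0.0596). Its partner in that cap, Psme1, had a log2 fold change of 0.10 with SE 0.09 (adjusted p = 0.476) and was not called, and neither were Psme3 (0.03), Psme4 (-0.12) and the inhibitor gene Psmf1 (-0.07). Psme2b, 99.37% identical to Psme2 over 794 bases and counted at 3.92% of its reads, had a log2 fold change of 0.70 with SE 0.19 (adjusted p = 0.0121), which is uncertain because the same reads could be assigned to either gene. It was lost without 94 dB replicates 3 and 4 (0.52, adjusted p = 0.183). Psme2 and Psme2b added together gave 0.49 (SE 0.10, adjusted p = 0.00209).

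Assembly chaperones help the rings form and leave the finished particle. Psmg3 had 5.69, 8.89, 8.44 and 8.19 CPM at 70 dB, 8.65, 9.46, 13.9 and 13.0 CPM at 94 dB, and 7.81, 8.90, 8.79 and 7.94 CPM at 105 dB. One 94 dB library lay inside the 70 dB range, and the log2 fold change was 0.53 with SE 0.16 (adjusted p = 0.0225). That call failed on omission of 70 dB replicate 1 (adjusted p = 0.0624) or of 94 dB replicate 3 (0.0865), 4 (0.0768) or both (0.22, adjusted p = 0.429), and in a fit of the 8 compared libraries alone (0.0515). Psmg4, its partner in a heterodimer, had 8.27, 9.60, 9.30 and 8.28 CPM at 70 dB, 9.66, 10.6, 13.4 and 14.4 CPM at 94 dB, and 13.1, 10.4, 14.6 and 11.3 CPM at 105 dB. Both louder groups were above all 70 dB libraries. The log2 fold change of Psmg4 at 94 dB was 0.44 with SE 0.14 (adjusted p = 0.0254). It failed on omission of 70 dB replicate 1 (adjusted p = 0.0594) or 4 (0.0585), or of 94 dB replicate 3 (0.0789), 4 (0.0976) or both (0.20, adjusted p = 0.409), and on removal of the GC and length trend (0.08, adjusted p = 0.653). The base chaperones Psmd9 and Psmd10 were higher as well. Psmd9 had a log2 fold change of 0.39 with SE 0.08 (adjusted p = 0.00312), lost without 94 dB replicates 3 and 4 (adjusted p = 0.0747). Psmd10, also known as gankyrin, had 21.5, 21.8, 22.3 and 21.4 CPM at 94 dB, against 17.5, 20.5, 18.3 and 16.9 CPM at 70 dB and a log2 fold change of 0.25 with SE 0.08 (adjusted p = 0.0329). The Psmd10 call was lost without 70 dB replicates 1, 3 or 4 or 94 dB replicates 2, 3 or 4, each left out alone (adjusted p between 0.0562 and 0.0856), with upper-quartile scaling (0.0589), without the filter on low counts (0.0723), and without 94 dB replicates 3 and 4 together (0.24, adjusted p = 0.148). Psmd5, the remaining base chaperone, was not called (-0.15, SE 0.07, adjusted p = 0.0949), nor were Psmg1 (0.18) and Psmg2 (0.09).

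**Figure D4:**
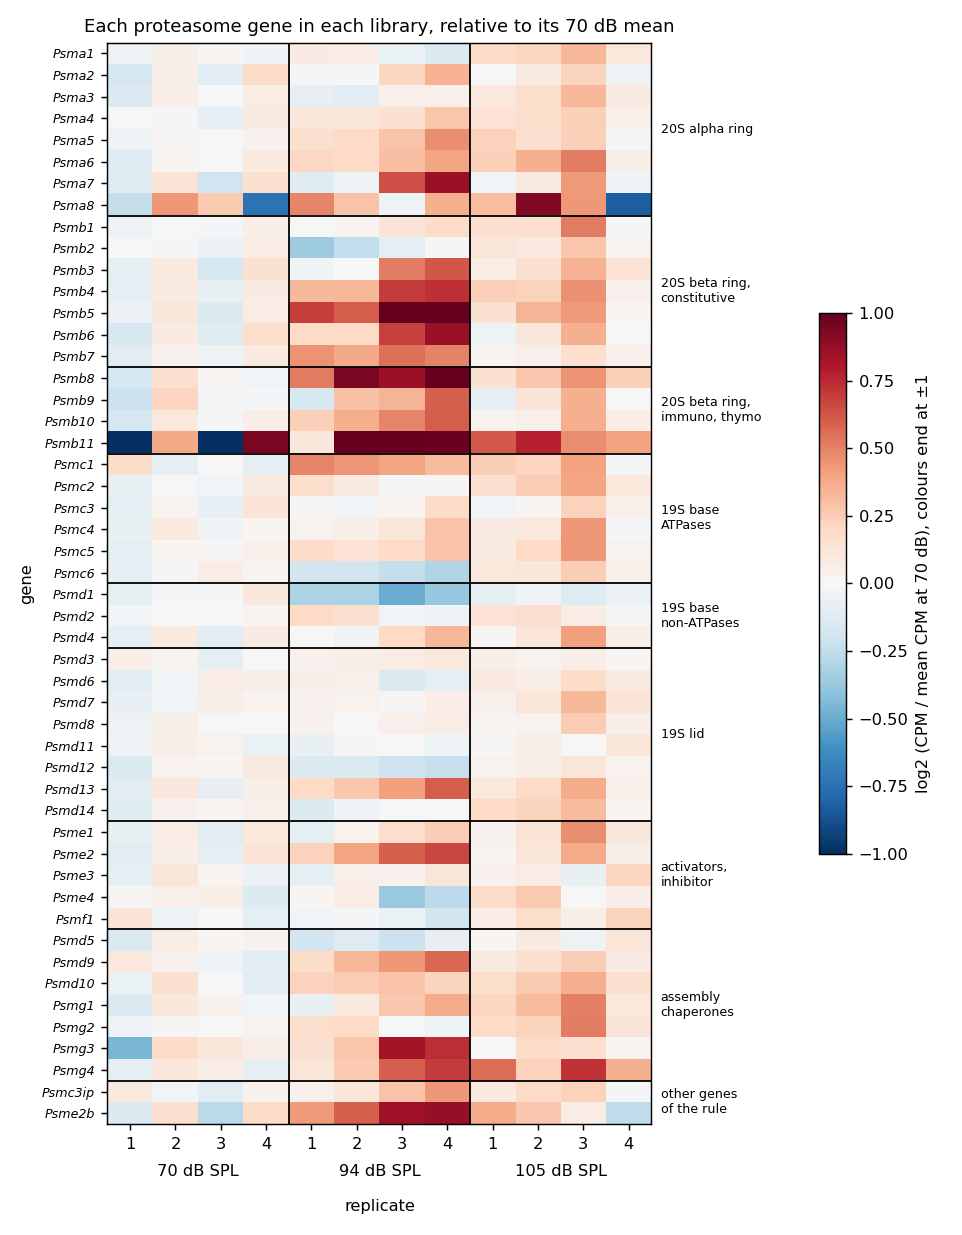
Log2 ratio of each library's TMM-scaled CPM to the gene's mean at 70 dB, for the 50 proteasome genes (rows, by role) in the 12 libraries (columns, by replicate within 70, 94 and 105 dB SPL); the colours end at ±1. In the 94 dB block, Psmb5 and Psmb8 are high in all 4 libraries while Psma7, Psmb3 and Psmb6 are highest in replicates 3 and 4, Psmd1 and Psmc6 are low, and in the 105 dB block replicate 3 is the highest of its group in 39 of the 50 genes.

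The loudest exposure, 105 dB, was then compared with the same 70 dB libraries. No proteasome gene passed (0 of 50, against 1.62% of all genes, 1.11% higher and 0.508% lower, edgeR's quasi-likelihood test). An unadjusted p under 0.05 was found in 16 of the 50 (32%), all of them higher, against 18.7% of all genes in either direction. DESeq2 called 2 of the 50, against 4.57% of all genes. The median log2 fold change was 0.154 over the 50 genes and -0.004 over all genes. Of the 50 genes 49 were above 0, against 49.3% of all genes, and 6 had every 105 dB library above every 70 dB library, against 5.78% of all genes, while 0 lay wholly below, against 5.03%. Those 6 were Psma1, Psma3, Psmc2, Psmd10, Psmg2 and Psmg4. The smallest adjusted p belonged to Psmg4, whose values were given above, at a log2 fold change of 0.48 with SE 0.14 (adjusted p = 0.0839). Psma6 followed at 0.30 with SE 0.09 (adjusted p = 0.0882). For Psmb5 the log2 fold change was 0.24 with SE 0.14 (adjusted p = 0.391), and with Gm3375 added it was 0.23 (SE 0.12, adjusted p = 0.321). Psmb8 had 0.28 with SE 0.11 (adjusted p = 0.184), and Psmd1, the single gene below 0, had -0.08 with SE 0.06 (adjusted p = 0.523). Single libraries stood at the end of their group in many of the genes at once. At 105 dB, replicate 3 was the highest of its group in 39 genes and replicate 4 the lowest in 29, and at 70 dB replicate 1 was the lowest in 32. The median fell to 0.112 without 105 dB replicate 3 and was 0.142 without 70 dB replicate 1. This comparison uses the same 70 dB libraries as the one at 94 dB, so the medians of both are not independent.

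In the direct comparison of 105 dB with 94 dB, 8 proteasome genes were higher and 6 lower (14 of 50, or 28%, against 17.3% of all genes, 8.06% higher and 9.23% lower; edgeR's quasi-likelihood test). The median log2 fold change was 0.021, and 0.002 over all genes. All 105 dB libraries lay above all 94 dB libraries in 10 genes and below in 4, against 10.5% and 10.8% of all genes. The 6 lower genes were Psmb5, Psmb7, Psmb8, Psmb10, Psme2 and Psme2b, and the 8 higher ones Psmc6, Psmd1, Psmd12, Psmd14, Psmb2, Psma1, Psmf1 and Psmd5. The 94 dB libraries enter this comparison and the first one alike. Leaving out 94 dB replicate 3 gave 7 genes (8.31% of all genes) and leaving out 94 dB replicate 4 gave 8 (9.45%). At 105 dB, the omission of replicate 1, 2 or 4 gave 8, 7 and 9 genes (13.1%, 10.4% and 10.2% of all genes). With neither 94 dB replicate 3 nor 4, only 2 genes were called, Psmb2 and Psmb7, against 1.07% of all genes. Of 5 markers of proliferating cells, 4 were higher at 105 dB than at 94 dB and none lower, with a summed level of 852 to 1087 CPM at 105 dB against 596 to 791 CPM at 94 dB. Of 8 macrophage markers 3 were lower and none higher, with summed levels of 473 to 527 CPM at 105 dB against 546 to 655 CPM at 94 dB. The part of these markers in the proteasome values was not tested.

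Psmb7 averaged 62.4 ± 2.83 CPM at 105 dB against 82.0 ± 4.17 CPM at 94 dB (SD, n = 4 each). Its log2 fold change of -0.39 with SE 0.07 (adjusted p = 0.00189) held in all 23 alternatives, as did that of Psmb2, 0.30 with SE 0.08 (adjusted p = 0.0164). Psmb2 encodes a further structural beta subunit, and its 105 dB libraries were all above the 94 dB ones. For Psmb5 the log2 fold change was -0.72 with SE 0.14 (adjusted p = 0.00642), with Gm3375 added -0.72 (SE 0.12, adjusted p = 0.00283), and for Psmb8 it was -0.57 with SE 0.11 (adjusted p = 0.00334). Both were lost only without 94 dB replicates 3 and 4, at -0.41 (adjusted p = 0.0742) and -0.47 (adjusted p = 0.075). Psmb10 (-0.29, SE 0.09, adjusted p = 0.0375) and Psme2 (-0.33, SE 0.10, adjusted p = 0.0288) overlapped between the groups through 105 dB replicate 3. Each was lost without any one of 94 dB replicates 3 and 4 and 105 dB replicates 1, 2 and 4, with adjusted p between 0.104 and 0.132 for Psmb10 and between 0.0733 and 0.102 for Psme2. Psme2b (-0.56, SE 0.19, adjusted p = 0.0464) held in 7 of 23 alternatives and failed on omission of 70 dB replicate 1 or 2, 94 dB replicate 2, 3 or 4, or 105 dB replicate 2, 3 or 4 (adjusted p between 0.0531 and 0.145).

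Of the higher genes, Psmc6 had a log2 fold change of 0.36 with SE 0.06 (adjusted p = 0.00258), which was lost with the GC and length trend removed (0.19, adjusted p = 0.0743). Psmd1 had 0.29 with SE 0.06 (adjusted p = 0.00741) and Psmd12 0.24 with SE 0.06 (adjusted p = 0.0143). Without 94 dB replicates 3 and 4 none of the 3 passed, at 0.32 (adjusted p = 0.0583) for Psmc6, 0.23 (0.119) for Psmd1 and 0.20 (0.179) for Psmd12. The other 4 depended on single libraries. Psmd14, the lid deubiquitinase gene, had 65.9, 74.2, 72.8 and 74.5 CPM at 70 dB, 65.2, 70.1, 71.6 and 71.5 CPM at 94 dB, and 82.6, 83.7, 89.7 and 72.9 CPM at 105 dB. Its 105 dB libraries were the highest apart from replicate 4, which lay within the 70 dB range, and the log2 fold change over 94 dB was 0.24 with SE 0.07 (adjusted p = 0.0272). It failed when 94 dB replicate 1 or 3 or 105 dB replicate 1, 2 or 3 was left out (adjusted p between 0.0546 and 0.0742). Psma1 had a log2 fold change of 0.22 with SE 0.07 (adjusted p = 0.0384), and failed when 94 dB replicate 3 or 4 or 105 dB replicate 1, 2 or 3 was left out (adjusted p between 0.0645 and 0.123). Psmf1, the inhibitor gene, had 0.21 with SE 0.07 (adjusted p = 0.0432), and failed on omission of 70 dB replicate 2 or 3, 94 dB replicate 3 or 4, or 105 dB replicate 1, 2 or 4 (adjusted p between 0.0509 and 0.131). Psmd5 had 0.20 with SE 0.07 (adjusted p = 0.0460), held in 7 of 23 alternatives and was lost without any single library other than 70 dB replicate 1 and 105 dB replicate 3 (adjusted p between 0.0514 and 0.131). After removal of the GC and length trend, Psmb10, Psme2, Psme2b, Psmd14, Psma1, Psmf1 and Psmd5 also missed the threshold (adjusted p between 0.0727 and 0.491). The same 7 genes missed it without 94 dB replicates 3 and 4 (adjusted p between 0.111 and 0.435).

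Levels between genes were compared per length, as TMM-scaled CPM per kb of merged exon, at 70 dB. Psmc5, an ATPase gene, was the highest at 87.6 ± 3.71 CPM per kb (SD, n = 4), followed by Psma6 at 69.2 ± 4.32, Psmc3 at 68.1 ± 5.18 and the nuclear activator gene Psme3 at 67.5 ± 4.68. The last 3 did not differ beyond their spread. With the length of the longest transcript in place of merged exons, Psmb4 ranked 1 and Psmc5 ranked 5. The median level was 48.7 CPM per kb for the base ATPases, 38.9 for the constitutive beta subunits, 36.0 for the alpha ring and 30.0 for the lid. This order also depends on the length used, since with the longest transcript the medians were 57.6 for the base ATPases, 62.2 for the constitutive beta subunits, 59.1 for the alpha ring and 49.7 for the lid. Assembly chaperones had a median of 10.5 and the immunoproteasome and thymoproteasome subunits of 5.79 CPM per kb. At the low end stood Psma8 at 0.210 ± 0.0714 and Psmb11 at 0.0341 ± 0.0255 CPM per kb. Per length, the immunoproteasome subunit Psmb9 stood to Psmb6 at a ratio of 0.126 ± 0.0132 in the 70 dB group, 0.109 ± 0.0171 in the 94 dB group and 0.125 ± 0.00183 in the 105 dB group (SD, n = 4 each). For Psmb8 to Psmb5 the ratios were 0.172 ± 0.0165, 0.164 ± 0.0360 and 0.177 ± 0.0161 in the same order. Psmb10 to Psmb7 gave 1.18 ± 0.0475, 1.15 ± 0.105 and 1.24 ± 0.0819. In each of the 3 pairs the libraries of the 3 noise levels overlapped, and no test was made. The ratios depend on the length used and, for Psmb5, on its copy. With the longest transcript the 70 dB ratios were 0.0825, 0.305 and 1.28 for Psmb9 to Psmb6, Psmb8 to Psmb5 and Psmb10 to Psmb7, and with Gm3375 added to Psmb5 its ratio was 0.102.

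**Figure D5:**
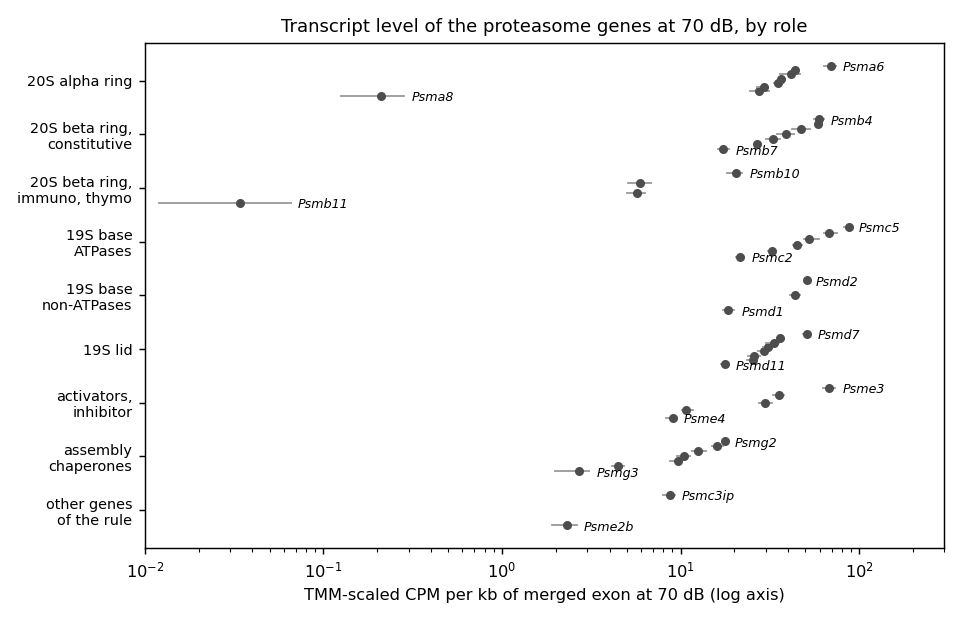
Mean TMM-scaled CPM per kb of merged exon at 70 dB for each of the 50 proteasome genes, by role, on a log axis; points are means of 4 libraries, lines run from the lowest to the highest library, and the lowest and highest gene of each role are named. Psma8 and Psmb11 lie far below the rest, and the immunoproteasome subunits and chaperones lie below the bulk of core and cap subunits.

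Genes that work with the proteasome but lie outside the symbol rule were examined next. Of 17 partners (maturation factor, further cap subunits, deubiquitinases and shuttle factors), 3 were higher and 2 lower at 94 dB than at 70 dB. Among all genes 13.9% were higher and 12.2% lower, so these counts are near the background. The median log2 fold change of the partners was 0.001. Sem1, a small lid subunit, averaged 77.9 ± 5.94 CPM at 94 dB against 52.4 ± 3.62 CPM at 70 dB, a log2 fold change of 0.57 with SE 0.12 (adjusted p = 0.00308). Adrm1, a ubiquitin receptor of the cap, averaged 107 ± 3.32 CPM against 83.4 ± 0.510 CPM, and 0.36 with SE 0.07 (adjusted p = 0.00144). The cap's deubiquitinases Usp14 (-0.32, SE 0.07, adjusted p = 0.00334) and Uchl5 (-0.27, SE 0.09, adjusted p = 0.0284) were the lower ones. Pomp, the core maturation factor, had 0.25 with SE 0.09 (adjusted p = 0.0537) and did not pass. None of the 17 passed at 105 dB over 70 dB, against 1.62% of all genes (Adrm1, Uchl5, Akirin2 and Fbxo7 had an unadjusted p under 0.05). At 105 dB over 94 dB, Uchl5 (0.53), Usp14 (0.35) and Ecpas (0.22) were higher and 2 genes lower, among them Sem1 (-0.40). Among all genes 8.06% were higher and 9.23% lower in that comparison.

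The NRF1 route of proteasome transcription was covered by 10 genes, of which 4 were higher and 1 lower at 94 dB, with a median of -0.035. Among all genes 13.9% were higher and 12.2% lower. Nfe2l1 itself averaged 316 ± 17.5 CPM at 94 dB against 258 ± 15.4 CPM at 70 dB (SD, n = 4 each), a log2 fold change of 0.29 with SE 0.07 (adjusted p = 0.00515). The small Maf genes were all higher, Maff at 1.49 with SE 0.13 (adjusted p = 2.29e-06), Mafk at 0.57 with SE 0.07 (adjusted p = 7.29e-05) and Mafg at 0.49 with SE 0.07 (adjusted p = 0.000166). Nfe2l2, which encodes the related factor NRF2, was lower at -0.27 with SE 0.07 (adjusted p = 0.0116). The processing genes Ddi2, Ngly1, Vcp, Ufd1 and Nploc4 had log2 fold changes between -0.13 and 0.00 and were not called. At 105 dB over 70 dB, Maff (1.25, SE 0.13, adjusted p = 2.27e-05) and Mafk (0.43, SE 0.07, adjusted p = 0.00308) were higher, while Nfe2l1 had -0.05 with SE 0.07 (adjusted p = 0.731) and was not called. In the direct comparison of 105 dB with 94 dB, Nfe2l1 (-0.34, SE 0.07, adjusted p = 0.00430) and Mafg (-0.30) were lower and Nfe2l2 (0.36) higher.

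Genes of MHC class I presentation, which uses peptides cut by the proteasome, and of the interferon response were mixed at 94 dB. Of 10 genes 4 were higher and 1 lower (median 0.23), against 13.9% and 12.2% of all genes. H2-D1 had a log2 fold change of 0.36 with SE 0.09 (adjusted p = 0.00734), the transcription factor gene Irf1 0.32 with SE 0.08 (adjusted p = 0.00655), the peptide transporter gene Tap2 0.28 with SE 0.09 (adjusted p = 0.0275) and the loading factor gene Tapbp 0.24 with SE 0.06 (adjusted p = 0.00785). B2m, the light chain of the MHC class I molecule, was lower at -0.25 with SE 0.08 (adjusted p = 0.0301). Tap1 (0.22) and Nlrc5 (0.16) were not called. None of the 10 passed at 105 dB over 70 dB, against 1.62% of all genes (B2m, H2-K1 and Nlrc5 had an unadjusted p under 0.05). At 105 dB over 94 dB, B2m (0.42) was higher and Irf1 (-0.34) and Tapbp (-0.24) lower.

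A property of the transcripts moved with the differences. Across 19484 genes the log2 fold change at 94 dB over 70 dB was correlated with the GC content of the transcript (Spearman's rho 0.456) and with exon length (-0.261), and across the 50 proteasome genes the values were 0.439 and -0.402. At 105 dB over 94 dB they were -0.455 and 0.156 across all genes, and -0.468 and 0.252 across the 50. At 105 dB over 70 dB they were 0.0897 and -0.207 across all genes, and 0.0653 and -0.437 across the 50. Genes share libraries and are no independent replicates, so these are descriptions. With a smooth trend on both removed per library, 17 of the 50 genes were higher and 2 lower at 94 dB, and 14 of the 19 calls were kept. At 105 dB over 70 dB 1 gene was then called and at 105 dB over 94 dB 7, against 2.51% and 8.93% of all genes. Across all genes the same step moved the number called at 94 dB to 3125 (16.0%), against 5085 (26.1%). Of the 3125, 2134 were higher and 991 lower. The part of GC content and length in the single values was otherwise not tested.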

How the data were processed

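Cochlear RNA was sequenced in 12 libraries, 4 per noise level. The values are raw whole-number counts per gene as the authors deposited them, and the submitters' processing notes name CASAVA, STAR, featureCounts 1.5.0-p3 and the mm10 build. Neither the strand setting nor the annotation is stated for the counting. Symbols and roles were assigned through the GENCODE M21 annotation, in which 35474 of 35496 gene identifiers had a symbol. Genes with few counts were removed with filterByExpr (minimum count 10), which left 19497 genes with 99.9% of all counts. Counts were scaled by the trimmed mean of M values (TMM) and fitted with edgeR 4.0.16 (R 4.3.3) as a mean per noise level over all 12 libraries, followed by a robust quasi-likelihood test per pair of levels and Benjamini-Hochberg adjustment over all genes tested. A gene was called at an adjusted p under 0.05. Standard errors are the log2 fold change divided by the square root of the F statistic.

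CPM are TMM-scaled counts per 1000000, and levels between genes are CPM per kb of merged exon. At these depths 3 counts correspond to between 0.0703 and 0.0966 CPM, a floor that covers counting error only. Replicates of a group had Pearson correlations of log2 CPM between 0.983 and 0.990, and their counts differed by more than sampling noise in every pair. Near-identical copies were found with blastn 2.17.0+ (at least 95% identity over 200 bases). The smallest change that the fit could detect in these data was not tested.

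Single genes were described in full where they had the largest changes called, were catalytic subunits, or led a role otherwise without a named gene; every other gene is given by its role. The genes, lists and tests were chosen with earlier results of these data known. Of the list of proteasome partners, Paaf1 was not analysed here, and the lists' counts include genes whose own values are not reported here. Alternatives were other scalings (DESeq2 1.42.0 size factors, upper quartile), other filters, the 8 compared libraries alone, replicate blocks, removal of a GC and length trend (mgcv 1.9.3), the DESeq2 test, and leaving out libraries.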

Additional observations from a re-analysis of the deposited data

Results flagged for a closer look

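A sample far from the others of its group, by Dixon's test at its 95% level for 4 values, was seen in 3 of the 150 groups formed by 50 genes and 3 noise levels. Chance flags about 1 in 20 groups. All 3 cases were replicate 3 at 105 dB. The lid subunit gene Psmd8 had 131.3 CPM there, while the other libraries of the group had between 112 and 114 CPM. For Psmb7 the value was 66.6 CPM, against 60.4 to 61.3 CPM in the others, and for Psmb10 it was 45.0 CPM, against 35.9 to 36.8 CPM.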

How the results depend on the processing

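For 94 dB over 70 dB, 19 genes were called with a median log2 fold change of 0.154. Leaving out 1 library gave 13 to 21 genes and medians of 0.120 to 0.196, while 17.5% to 27.3% of all genes were called. Leaving out 94 dB replicates 3 and 4 gave 7 and 0.0818, with 7.97% of all genes called. For 105 dB over 70 dB, 0 genes became 1 with the GC and length trend removed, with blocks by sample code, and without 94 dB replicates 3 and 4, became 2 without a filter and with DESeq2, and became 3 with trend and block together, while leaving out 1 library gave 0 to 1. For 105 dB over 94 dB, 14 became 7 with the trend removed (8.93% of all genes) and with blocks by sample code (7.25%), and 8 with trend and block together (9.62%). They became 2 without 94 dB replicates 3 and 4 (1.07%), and 7 to 17 when 1 library was left out (8.31% to 19.1%). Length per longest transcript moved the 70 dB ratios to 0.0825 (Psmb9 to Psmb6), 1.28 (Psmb10 to Psmb7) and 0.305 (Psmb8 to Psmb5), and adding Gm3375 moved the last to 0.102. The cause was not tested. Psmc6 at 94 dB over 70 dB turned to 0.0458 with the trend removed and to 0.0463 with the block as well. Over 33 called gene comparisons and 763 alternative values, 610 kept direction and side of the threshold, 151 lost the call and 2 turned sign. Over all genes, the count at 105 dB over 70 dB was 316, 523 without a filter, 479 with the replicate block, 489 with the trend removed, 868 with both and 891 with DESeq2, and its share of higher genes was 68.7%, or 58.3% with upper-quartile scaling. At 94 dB over 70 dB it was 5085, 3125 with the trend removed, 3357 with the block as well, and 1610 without 94 dB replicates 3 and 4. At 105 dB over 94 dB it was 3372, 1741 with the trend removed, 1875 with the block as well, 1414 with blocks by sample code and 217 without 94 dB replicates 3 and 4. A replicate block by number called 18, 0 and 14 of the proteasome genes in the order 94 over 70, 105 over 70 and 105 over 94 dB. Of all genes it called 26.1%, 2.46% and 17.3% in that order. Same-numbered libraries deviated together with correlations between -0.136 and 0.186, over 0.1 in 3 of 12 pairs. Libraries with the same number in their sample code had -0.0391 to 0.186, over 0.1 in 4 of 10 pairs. Libraries with different numbers were not compared in this way, so these values cannot decide whether either number pairs libraries. With blocks by sample code, the calls at 105 dB over 94 dB that were lost were Psma1, Psmb10, Psmd1 (adjusted p = 0.0510), Psmd12 (0.0576), Psmd5, Psme2b and Psmf1. Depth limits Psmb11 and Psma8, which stayed under 1 CPM.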
